A study of Mus musculus with 6 samples.

Results

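Accessible chromatin was described at 34 genes of the extracellular matrix in mouse nephron progenitors, the Six2-positive cells of the kidney cortex that give rise to nephrons. The genes encode collagen and laminin chains, nidogens and the matrix heparan sulfate proteoglycans Hspg2 (perlecan) and Agrn (agrin). A region was taken when its midpoint lay in the RefSeq span of one of these genes or within 10 kb of it, which gave 112 of 43523 distinct regions. Of these, 66 lay at 18 basement membrane genes, 35 at 14 genes of the fibrillar and interstitial matrix, and 11 at the transmembrane collagens Col23a1 and Col25a1. The series measured ATAC-seq, in which the transposase Tn5 cuts into open chromatin, so that the count over a region reports its accessibility and not the expression of a gene. There were 3 libraries from E14.5 embryos and 3 from pups on the day of birth (P0), each from the pooled kidneys of 1 litter (up to 24 kidneys). The mice were CD1, with no genotype or treatment named for either stage. The cells were taken from the kidney surface by brief digestion and selected with beads against Itga8, an integrin of nephron progenitors, and 50000 cells entered each reaction.

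A basement membrane is a thin sheet under epithelia and around vessels. Laminins, trimers of an alpha, a beta and a gamma chain, polymerise into one network and collagen IV into another, nidogens join the networks, and perlecan and agrin attach to them. Collagens XV and XVIII, the multiplexins, sit at the border between basement membrane and stroma. Nephron progenitors are mesenchymal, and when they turn into epithelial vesicles they acquire a basement membrane. The fibril-forming collagens build the cables of interstitial matrix, collagen VI forms beaded filaments between them, and the FACIT collagens (Col9a1, Col12a1, Col14a1) bind to fibril surfaces.

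The total count in regions ranged from 6492996 to 12292629 per library, and the member regions held 13 to 1403 counts in a library, at widths of 433 to 4893 bp. The labelled cell type was checked against marker genes. Of 6 nephron progenitor markers with a start in the RefSeq promoter table, 5 had a region over it (Six2, Cited1, Sall1, Itga8 and Meox2, but not Hoxd11), against 5 of 8 stromal, 3 of 7 endothelial, 2 of 6 ureteric and 0 of 6 immune markers. The summed accessibility of each marker list overlapped between the stages. It was 497 to 534 CPM (CPM are counts scaled to library size by TMM) at E14.5 and 460 to 587 CPM at P0 for the 10 of 11 progenitor markers with a region, with none at Meox1. The stromal list (9 of 11 genes, none at Pdgfra or Ntn1) had 312 to 336 and 303 to 342 CPM, and the endothelial list (8 of 11, none at Pecam1, Emcn or Egfl7) 279 to 306 and 269 to 303 CPM. The ureteric list (7 of 11 genes) had 250 to 274 and 257 to 271 CPM. The immune list (7 of 10, none at Csf1r, Adgre1 or Tyrobp) had 164 to 220 and 145 to 201 CPM. Single marker regions did change: one each at Eya1 and Itga8 fell by 1.43 and 1.31 on the log2 scale at P0 (edgeR adjusted p = 0.00370 and 0.0120), and one each at the endothelial gene Cdh5 and the stromal gene Cspg4 rose by 0.93 and 0.86 (adjusted p = 0.0411 and 0.0446). These were the calls among 24 progenitor, 14 endothelial and 17 stromal marker regions (8.33%, 7.14% and 5.88%). Over all regions 4.73% were called, and 6.59% outside promoters, where these calls lay. Of the regions in the 3 lists, 14, 5 and 8 were fitted higher, with medians of 0.14, -0.11 and -0.06. The part of such cells in the matrix results was not tested. In these bulk samples, fewer cells of a type and less accessibility per cell cannot be told apart.

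Most of these genes had an open start in the progenitors. Of the 23 members with a start in the promoter table, 18 had a region over at least 1 start: 10 of 12 basement membrane genes, 6 of 9 fibrillar matrix genes and both transmembrane collagens. Counting also the regions that the table itself lists as promoters, 27 of 34 members had one (16 of 18 basement membrane and 9 of 14 fibrillar matrix genes). The 7 without were Lamb1, Lamb2, Col1a1, Col3a1, Col6a1, Col6a3 and Col14a1. Lamb2 and Col14a1 each had a region that the table lists as the promoter of another gene.

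An open start went with the CpG content of the 250 bases before it. Over 21262 starts of protein-coding genes, 54.1% were covered by a region, which was 8.81% of those with 0 to 3 CpG, 44.4% of those with 4 to 9 and 84.4% of those with 10 or more. Among the 27 starts of the members the counts were 2 of 8, 3 of 4 and 14 of 15. The following upstream stretches, from RefSeq on GRCm38.p6 and read 5′ to 3′ along the gene, show this contrast, with each CpG in capitals. Nid1 (nidogen-1, chr13:13437352-13437601, plus strand, within the span of the predicted gene Gm7426), Hspg2 (chr4:137468553-137468750, plus strand) and Col1a2, a chain of collagen I (chr6:4505368-4505617, plus strand), had 16, 20 and 11 CpG in those 250 bases and a covered start. For Hspg2 a stretch of 198 of these bases is shown, with 17 of the CpG.
Nid1: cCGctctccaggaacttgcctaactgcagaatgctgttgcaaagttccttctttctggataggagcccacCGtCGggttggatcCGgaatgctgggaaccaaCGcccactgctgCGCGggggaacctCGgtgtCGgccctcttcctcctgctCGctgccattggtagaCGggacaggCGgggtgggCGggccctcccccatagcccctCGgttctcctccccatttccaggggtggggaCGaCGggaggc
Hspg2: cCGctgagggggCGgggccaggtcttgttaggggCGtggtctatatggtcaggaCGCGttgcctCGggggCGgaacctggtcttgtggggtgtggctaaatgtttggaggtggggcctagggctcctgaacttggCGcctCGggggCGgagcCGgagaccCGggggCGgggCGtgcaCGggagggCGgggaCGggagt
Col1a2: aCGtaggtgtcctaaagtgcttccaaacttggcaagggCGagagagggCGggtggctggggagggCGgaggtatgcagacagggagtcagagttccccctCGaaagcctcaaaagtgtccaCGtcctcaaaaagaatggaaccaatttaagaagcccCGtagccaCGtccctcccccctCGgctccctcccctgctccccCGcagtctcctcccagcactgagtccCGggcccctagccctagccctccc
Col3a1, the chain of collagen III (chr1:45311288-45311537, plus strand), held no CpG and its start had no region. Lamb1, a laminin beta chain (chr12:31265043-31265145, plus strand), was the exception among the CpG-rich starts: it had 14 CpG in the 250 bases before its start, 6 of them in the stretch shown, and no region over it.
Col3a1: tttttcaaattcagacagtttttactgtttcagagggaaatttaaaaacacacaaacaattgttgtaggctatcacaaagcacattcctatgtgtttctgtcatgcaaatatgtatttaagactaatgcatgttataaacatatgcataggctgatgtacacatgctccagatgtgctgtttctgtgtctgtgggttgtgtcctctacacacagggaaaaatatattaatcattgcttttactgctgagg
Lamb1: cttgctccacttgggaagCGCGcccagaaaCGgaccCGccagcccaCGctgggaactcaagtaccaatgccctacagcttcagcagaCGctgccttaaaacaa
Col9a1 has 2 starts in the table, 17593 bp apart, which are shown because its regions moved in different directions. The first (chr1:24177360-24177588, plus strand) and the second (chr1:24194953-24195202, plus strand, inside the gene) held no CpG, and a region covered the second only.
Col9a1 first start: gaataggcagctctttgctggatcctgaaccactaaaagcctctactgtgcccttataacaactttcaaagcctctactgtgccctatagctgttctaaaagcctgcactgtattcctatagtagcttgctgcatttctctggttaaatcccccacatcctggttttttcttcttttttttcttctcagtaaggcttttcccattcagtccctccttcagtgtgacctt
Col9a1 second start: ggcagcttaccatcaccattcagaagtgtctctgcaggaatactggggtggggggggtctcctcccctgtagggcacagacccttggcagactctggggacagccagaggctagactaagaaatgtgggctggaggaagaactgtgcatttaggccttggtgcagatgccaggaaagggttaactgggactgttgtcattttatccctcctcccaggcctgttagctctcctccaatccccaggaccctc
The covered starts with 0 to 3 CpG were this one and that of Lama2. In windows from 250 bases before to 50 after the start, a GC box (GGGCGG or its complement CCGCCC) lay at 18 of 27 member starts (66.7%) against 46.2% of all protein-coding starts. CCAAT or ATTGG lay at 9 (33.3%) against 38.2%, and TATAAA or TTTATA at 1 (3.7%), that of Col3a1, against 12.6%. Both strands were searched in each case, and these letters are a description and not sites of binding.

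Between E14.5 and P0, 6 of the 112 regions passed the test (5.36%), 4 higher and 2 lower at P0. Over all regions 4.73% passed, 1.79% higher and 2.94% lower, so that the share at the matrix genes was near that of the whole table. The test was edgeR's quasi-likelihood test with Benjamini-Hochberg adjustment over 43523 regions and a threshold of 0.05. The 6 regions lay at Col15a1 (2), Nid2, Col27a1 and Col9a1 (2). At an unadjusted p under 0.05 there were 31 member regions (27.7%, against 18.7% of all regions), 24 higher (21.4%, against 9.85%) and 7 lower (6.25%, against 8.85%). The libraries of the stages did not overlap at 37 regions (33.0%, against 24.2%), 27 of them higher at P0 (24.1%, against 11.8%) and 10 lower (8.93%, against 12.4%). The median log2 fold change of the members was 0.09, against 0.01 over all regions. All 6 calls were lost, by edgeR, without E14.5 replicate 3 (18 regions at an unadjusted p under 0.05) and without P0 replicate 1 (20 regions), where the calls over the whole table also fell, to 0.779% and 1.09% of regions. Leaving out another library gave between 3 and 10 calls.

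**Figure D1:**
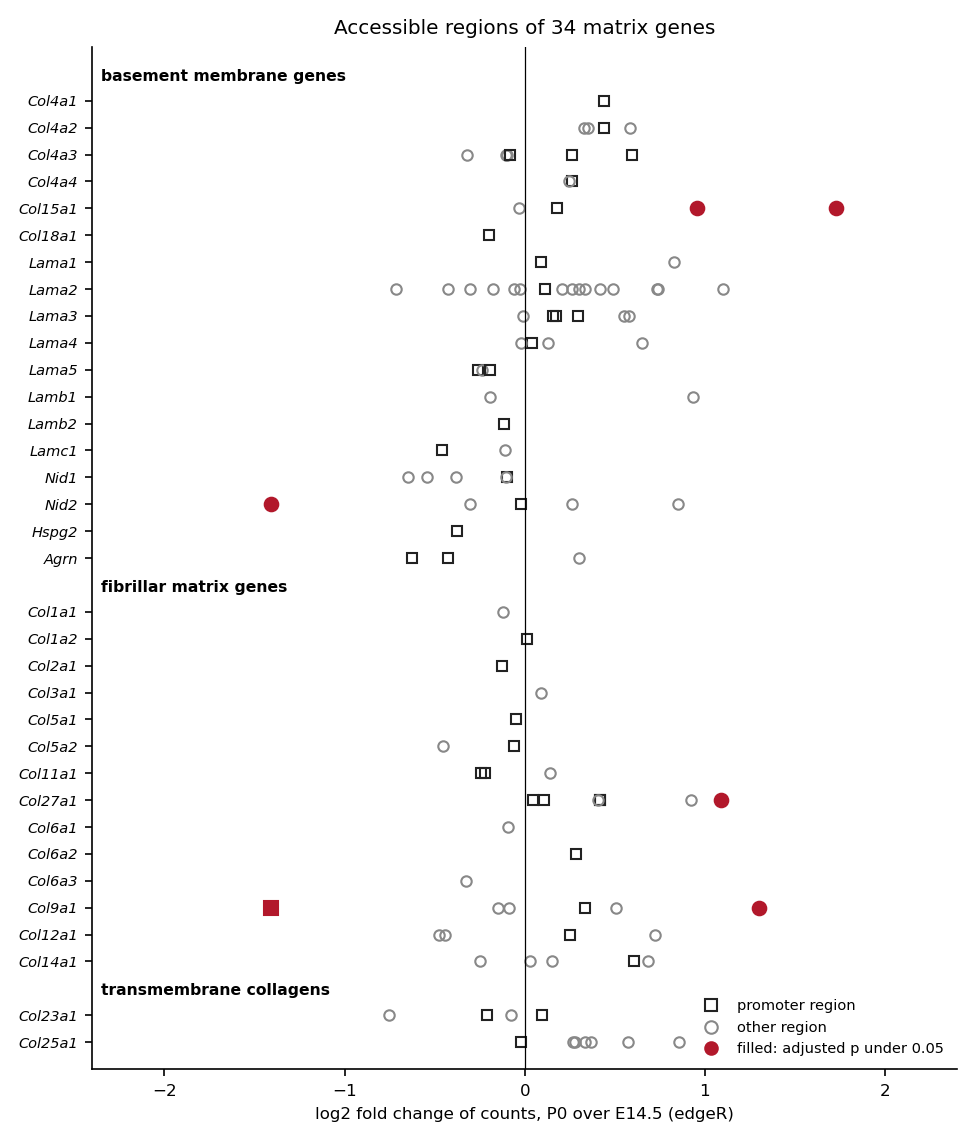
Log2 fold change of counts between P0 and E14.5 (x axis, edgeR) for each region of each gene (y axis). Squares are regions listed as promoters, circles other regions, and filled red marks the 6 regions past the adjusted threshold; these lie at Col15a1, Nid2, Col27a1 and Col9a1, and Lama2 carries the most regions.

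Collagen XV had 2 of the 4 regions that rose. Col15a1 encodes a chondroitin sulfate proteoglycan of basement membrane borders. The region chr4:47203259-47204061, 4.35 kb before its start and inside the span of the long noncoding gene Gm12426, had 1.90, 2.54 and 1.52 CPM in the E14.5 libraries and 6.77, 5.60 and 7.58 CPM at P0. Every P0 library was above every E14.5 library, and the region was among the weakest of the members. Its mean rose from 1.99 ± 0.516 to 6.65 ± 0.995 CPM (SD, n = 3 each), or by 1.73 on the log2 scale (SE 0.35, adjusted p = 0.0120). The second region, chr4:47226629-47229216, lay in the gene outside exons, 19.9 kb after the start. It had 12.1, 10.9 and 10.4 CPM at E14.5 and 22.1, 20.9 and 21.8 CPM at P0, again with no overlap and with little spread within a stage. It rose by 0.95 on the log2 scale (SE 0.20, adjusted p = 0.0132). The region over the start of the gene, chr4:47207506-47210626, had 18.9, 16.7 and 21.6 CPM at E14.5 and 19.4, 29.5 and 16.3 CPM at P0, so that the stages overlapped there (log2 fold change 0.18, adjusted p = 0.748). The fourth region, 47.6 kb after the start, had a log2 fold change of -0.03. Collagen XVIII (Col18a1), the other multiplexin and the source of endostatin, had 1 region, over its start, at -0.20.

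The remaining change at a basement membrane gene was a fall at Nid2, the gene of nidogen-2. The region chr14:19765890-19766719, in the gene outside exons, had 9.85, 8.32 and 14.9 CPM at E14.5 and 3.64, 2.27 and 6.16 CPM at P0. The stages did not overlap, though both spread widely. Its mean fell from 11.04 ± 3.47 to 4.02 ± 1.97 CPM (SD, n = 3 each), with -1.41 as its log2 fold change (SE 0.36, adjusted p = 0.0355). A neighbouring region of the same gene, chr14:19761989-19762795, moved the other way, from 4.63, 5.69 and 4.09 CPM to 8.54, 8.63 and 8.998 CPM. That difference (0.85, SE 0.28) did not pass the adjusted threshold (adjusted p = 0.0994), although the stages did not overlap. The promoter region of Nid2, chr14:19750122-19752635, was at 47.3, 52.5 and 57.0 CPM at E14.5 and 51.4, 46.9 and 56.4 CPM at P0, with a log2 fold change of -0.02. The Nid2 fall was lost with limma-voom and without E14.5 replicates 1 or 3 or P0 replicates 1 or 2 (adjusted p 0.00620 to 0.239 over 14 alternatives). At Nid1, the partner gene, all 5 regions were fitted lower at P0, from -0.65 to -0.10, and none passed. Over the 10 regions of the nidogens the median was -0.21, with 2 fitted higher.

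**Figure D2:**
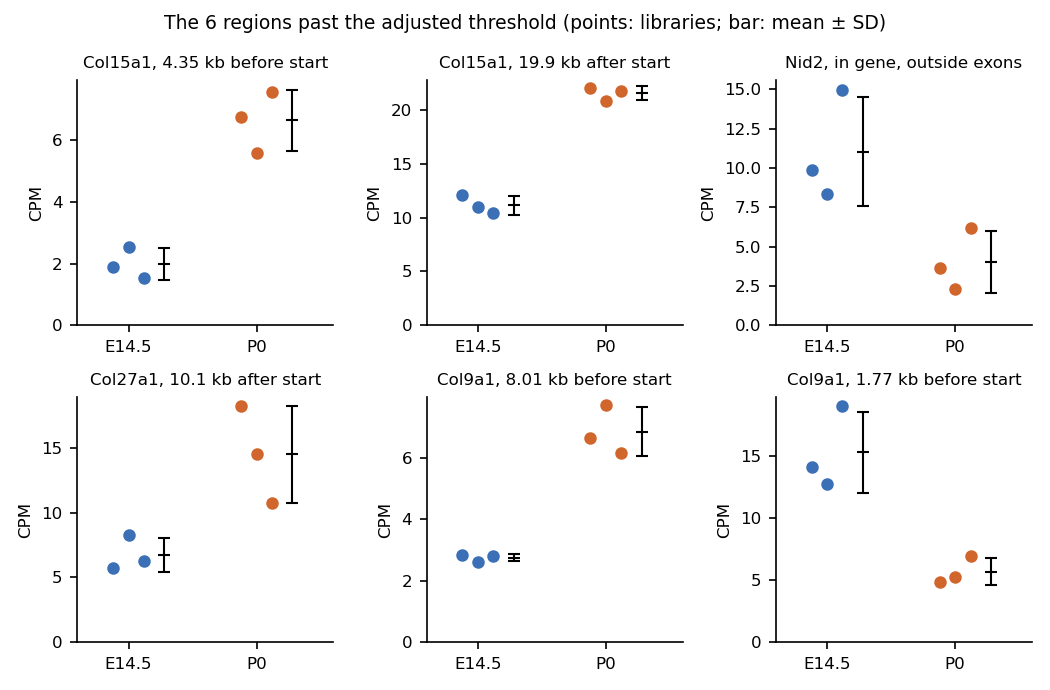
Accessibility in CPM (y axis, from 0) of the 6 regions past the adjusted threshold, by stage (x axis), with 1 point per library and the mean ± SD. The stages do not overlap in any panel: the regions at Col15a1 and Col27a1 are higher at P0, that at Nid2 is lower, and Col9a1 has one of each.

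Collagen IV is the most abundant collagen of basement membranes. Its genes lie in head-to-head pairs, and the RefSeq starts of Col4a1 and Col4a2 were 21 bp apart on opposite strands, so that 1 region, chr8:11311560-11315380, covered both. It had 27.8, 26.4 and 30.8 CPM at E14.5 and 35.8, 36.3 and 42.7 CPM at P0. Each P0 library was above each E14.5 library, but the difference did not pass (log2 fold change 0.44, SE 0.19, adjusted p = 0.213). All 4 regions at Col4a2 were fitted higher, from 0.33 to 0.59, while at Col4a3 4 of 6 were fitted lower, from -0.32 to -0.08, none past the threshold. Col4a3 and Col4a4 encode chains of the mature glomerular basement membrane. The region chr1:82585695-82587698, which covers the Col4a4 start and is listed as the Col4a3 promoter, had 27.3, 26.8 and 23.4 CPM at E14.5 and 31.8, 33.3 and 27.9 CPM at P0, without overlap and without passing (0.26, SE 0.18, adjusted p = 0.494). Of the 11 regions at collagen IV genes, edgeR called 0, with 3 at an unadjusted p under 0.05 (27.3%, against 18.7% of all regions). All 3 were higher (against 9.85% of all regions). DESeq2, which called 6.38% of all regions, and limma-voom called 0 too. The median log2 fold change of the 11 regions was 0.26, against 0.01 over all regions.

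The laminin genes had 36 regions, 16 of them at Lama2 alone, a long gene whose chain is known from muscle and peripheral nerve. By edgeR 0 of the 36 passed, with 10 at an unadjusted p under 0.05 (27.8%, against 18.7% of all regions), 9 of them higher (25%, against 9.85%) and 1 lower (2.78%, against 8.85%); DESeq2 called 2 and limma-voom 0. The closest to the threshold was at Lama1, whose chain belongs to the first embryonic laminin. The region chr17:67779433-67780453, in the gene outside exons, had 9.37, 7.62 and 9.46 CPM at E14.5 and 19.8, 14.1 and 13.1 CPM at P0. The stages did not overlap (log2 fold change 0.83, SE 0.24, adjusted p = 0.0640; 0.0449 to 0.381 over 14 alternatives, of which 3 passed). At Lamb1 an exonic region 4.17 kb after the start, chr12:31269127-31269803, had 10.1, 13.8 and 6.77 CPM at E14.5 and 24.5, 14.22 and 19.97 CPM at P0. These values only just did not overlap (0.94, SE 0.27, adjusted p = 0.0669; 0.0280 to 0.347, with 3 of 14 passing). At Lama4, a chain of vascular basement membranes, chr10:38991921-38994371 had 11.3, 12.2 and 11.9 CPM at E14.5 and 18.1, 22.2 and 15.6 CPM at P0. Its E14.5 libraries lay close together and below all P0 libraries (0.65, SE 0.21, adjusted p = 0.1003). The promoter regions of Lama1 and Lama4 overlapped between stages. That of Lama1, chr17:67696760-67698859, had 50.4, 46.7 and 55.0 CPM and 62.2, 41.0 and 58.6 CPM (0.09), and that of Lama4, chr10:38964619-38967604, had 40.5, 39.6 and 30.1 CPM and 40.7, 34.05 and 38.7 CPM (0.04).

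Within Lama2 the regions did not move as one. They spread over 621 kb from the start, and their log2 fold changes ranged from -0.71 at a region 331 kb after the start to 1.10 at one 449 kb after it, neither past the adjusted threshold (adjusted p = 0.119 and 0.115). The first of these, chr10:27284476-27286643, had 17.2, 26.2 and 34.3 CPM at E14.5 and 13.8, 18.9 and 14.9 CPM at P0, with overlap. The other, chr10:27167333-27167895, had 2.37, 3.77 and 2.10 CPM and 8.33, 4.99 and 4.58 CPM, with none. These 2 regions were chosen after their values were seen, as the ends of the range within the gene. The region over the Lama2 start, whose upstream bases hold no CpG, was among the more open of the members at 44.2, 49.6 and 39.5 CPM and 44.7, 46.3 and 53.2 CPM (0.11).

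**Figure D3:**
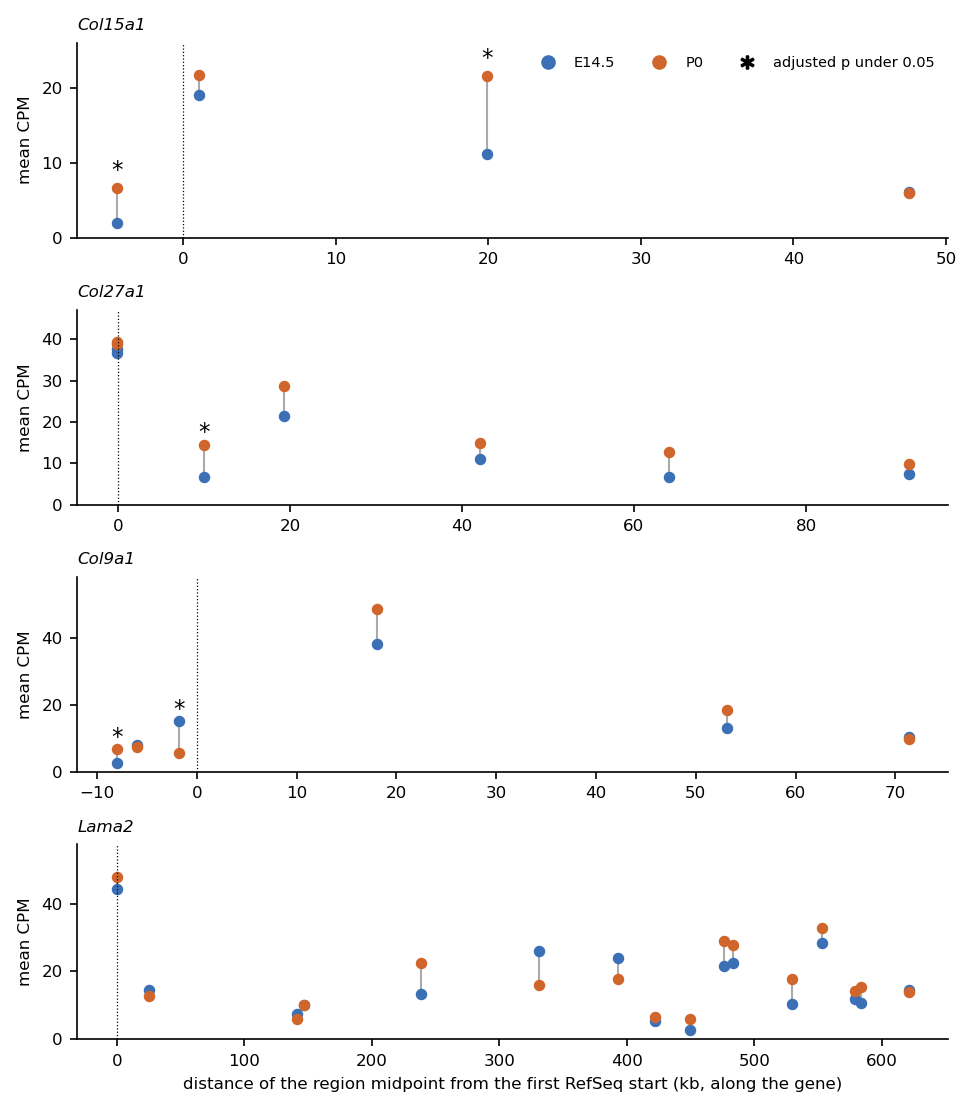
Mean CPM at E14.5 (blue) and P0 (orange) of each region (y axis, n = 3 libraries per stage) against the distance of its midpoint from the first RefSeq start along the gene, in kb (x axis), for Col15a1, Col27a1, Col9a1 and Lama2. Asterisks mark the regions past the adjusted threshold, and the regions over the starts of Col15a1, Col27a1 and Lama2 differ little between stages.

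Agrn and Hspg2 encode the proteoglycans, with 4 regions in all. The promoter region of Agrn, chr4:156196371-156198302, also lies within 10 kb of Isg15 and Perm1 by its midpoint. It had 47.1, 42.6 and 65.2 CPM at E14.5 and 35.8, 23.9 and 39.9 CPM at P0. The lowest E14.5 library was just above the highest P0 library (log2 fold change -0.63, SE 0.23, adjusted p = 0.149). The promoter region of Hspg2, chr4:137468170-137470482, whose CpG-rich upstream bases are shown above, had 31.4, 22.4 and 28.7 CPM at E14.5 and 22.4, 20.0 and 21.2 CPM at P0. It lay at -0.37 (SE 0.20, adjusted p = 0.328). Of the 4 regions at these genes edgeR, DESeq2 and limma-voom called 0, and 1 was fitted higher. By edgeR 1 of the 4, the Agrn promoter region, had an unadjusted p under 0.05, and it was lower. Over all regions the share under 0.05 was 18.7%, with 8.85% lower. Lamc1 encodes the gamma chain of most laminins, and its promoter region had 59.2, 45.4 and 46.7 CPM and 28.6, 29.8 and 51.1 CPM, with overlap through P0 replicate 3 (-0.46, adjusted p = 0.325).

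For the basement membrane genes together, 3 of 66 regions passed, 2 higher and 1 lower (4.55%, against 4.73% of all regions). Regions listed as the promoter of any gene were described apart from the others. Of the 21 promoter regions edgeR called 0 (0.851% over all promoter regions), with 3 at an unadjusted p under 0.05 (14.3%, against 8.73% of all promoter regions), and DESeq2 and limma-voom called 0. Their log2 fold changes ranged from -0.63 to 0.59, with a median of -0.02, against -0.10 over all promoter regions. Of the 45 regions outside promoters 3 passed (6.67%, against 6.59%), and 17 had an unadjusted p under 0.05 (37.8%, against 23.5% of all regions outside promoters). Of these 13 were higher (28.9%, against 13.3%) and 4 lower (8.89%, against 10.2%). Their median was 0.21, against 0.10 over all regions outside promoters. The CPM summed over these 45 regions was 537, 591 and 550 at E14.5 and 621, 646 and 624 at P0, without overlap, and the sum over the 21 promoter regions was 701, 680 and 731 at E14.5 and 664, 645 and 725 at P0, with overlap. Summed over all 29426 regions outside promoters, the stages overlapped (399674 to 426029 CPM at E14.5 and 397005 to 457956 CPM at P0), and the difference between the class and all regions was not tested. The region of the class with the highest mean CPM covered the Nid1 start, chr13:13436931-13439955, with 70.3, 79.0 and 88.4 CPM at E14.5 and 76.0, 72.8 and 73.5 CPM at P0 (-0.10). Per length it had 25.3 CPM per kb, below the 27.99 CPM per kb of the region over the Lama2 start.

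**Figure D4:**
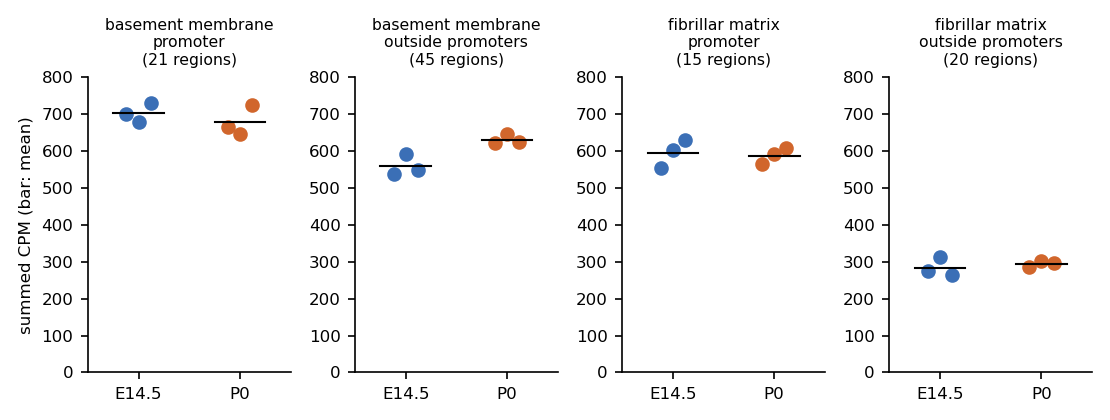
CPM summed over the regions of a class (y axis, from 0) in each library (points) with the mean of each stage (bar), for basement membrane and fibrillar matrix genes, promoters and other regions apart. At the 45 basement membrane regions outside promoters the libraries lie at 537 to 591 CPM and 621 to 646 CPM, without overlap, and in the other panels the stages overlap; the difference between panels was not tested.

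At the fibrillar matrix genes 3 of 35 regions passed, 2 higher and 1 lower (8.57%, against 4.73% of all regions). Col9a1, a FACIT collagen chain best known from cartilage, had both a rise and a fall within 8.01 kb before its first start. The promoter-listed region chr1:24175281-24176394, 1.77 kb before that start, had 14.1, 12.8 and 19.0 CPM at E14.5 and 4.89, 5.30 and 6.95 CPM at P0. Every E14.5 library was well above every P0 library. The mean fell from 15.3 ± 3.29 to 5.71 ± 1.09 CPM (SD, n = 3 each), with -1.41 as its log2 fold change (SE 0.26, adjusted p = 0.00739), the smallest p among the member regions. The intergenic region chr1:24169268-24169941, 8.01 kb before the start, had 2.85, 2.63 and 2.803 CPM at E14.5 and 6.66, 7.72 and 6.16 CPM at P0. The E14.5 libraries were nearly equal, and the rise was 1.30 on the log2 scale (SE 0.32, adjusted p = 0.0283; 0.0106 to 0.133 over 14 alternatives). It was lost with the replicate number as a block and without E14.5 replicates 1 or 3 or P0 replicates 1 or 2. A region between these, 6.00 kb before the start, lay at -0.15. The region over the second start, chr1:24194018-24197257, had 29.5, 49.5 and 36.2 CPM and 51.4, 53.0 and 41.7 CPM (0.34, adjusted p = 0.448), with overlap.

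Col27a1 encodes a fibril-forming collagen of cartilage and other developing tissues. Its exonic region chr4:63224743-63226213, 10.1 kb after the start, had 5.69, 8.23 and 6.31 CPM at E14.5 and 18.2, 14.53 and 10.7 CPM at P0. The stages did not overlap, and the P0 libraries spread more than those of E14.5. Its mean rose from 6.74 ± 1.32 to 14.49 ± 3.74 CPM (SD, n = 3 each), or by 1.09 on the log2 scale (SE 0.27, adjusted p = 0.0298; 0.00960 to 0.226 over 14 alternatives). This call too was lost without E14.5 replicates 1 or 3 or P0 replicates 1 or 2. Its region with the next smallest p, chr4:63278668-63280229, had 7.95, 3.42 and 8.87 CPM and 9.58, 16.3 and 12.2 CPM (0.92, SE 0.33, adjusted p = 0.139), with no overlap. All 7 regions of Col27a1 were fitted higher at P0. Its start lay in a pair of overlapping regions, of which chr4:63213832-63216772 had 32.3, 38.6 and 38.9 CPM at E14.5 and 37.8, 34.2 and 45.9 CPM at P0 (0.11).

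The other FACIT genes had no region past the threshold. At Col14a1, which binds fibrils through decorin, the exonic region chr15:55385296-55386485 had 6.88, 7.71 and 6.19 CPM at E14.5 and 10.4, 14.7 and 8.76 CPM at P0 (0.69, SE 0.27, adjusted p = 0.175). A region inside the same gene that is listed as the promoter of another gene, chr15:55440275-55441514, had 8.30, 15.0 and 8.64 CPM and 19.5, 14.53 and 15.0 CPM (0.61, adjusted p = 0.218). The first did not overlap between stages and the second did. At Col12a1, a FACIT collagen of dense connective tissue, the exonic region chr9:79680521-79681403 had 4.03, 7.27 and 4.32 CPM and 9.58, 8.78 and 7.74 CPM, without overlap (0.72, SE 0.30, adjusted p = 0.208). Its promoter region, chr9:79717065-79720578, had 43.7, 43.8 and 53.9 CPM and 60.7, 46.2 and 61.0 CPM (0.25).

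The classical interstitial collagens differed little. Col1a1 had 1 region, intergenic and within 10 kb of the gene, at -0.12, and Col3a1 had 1, in the gene outside exons, at 0.09. The Col1a2 start lay in chr6:4504314-4507459, with 33.5, 23.9 and 36.6 CPM at E14.5 and 25.4, 29.7 and 39.2 CPM at P0 (0.01). The 3 regions of collagen VI ranged from -0.33 to 0.28, with 0 past the threshold by edgeR, DESeq2 or limma-voom and 0 at an unadjusted p under 0.05. The highest mean CPM of the class, and of all members, was that of a region over the start of Col11a1, a minor fibril chain that sets fibril diameter. It lay at chr3:114029728-114032621 and had 118, 123 and 131 CPM at E14.5 and 96.8, 114 and 104 CPM at P0, or 39.6 CPM per kb. An overlapping region over the same start was the highest per length, at 41.8 CPM per kb. The stages did not overlap, but the difference did not pass the threshold (-0.24, SE 0.20, adjusted p = 0.566). Over the 35 regions the median log2 fold change was 0.05. Its sign turned without P0 replicate 3 (-0.0389) and with 25 kb in place of 10 kb (-0.0436). The summed CPM was 829 to 915 at E14.5 and 851 to 905 at P0. The 15 regions of this class listed as promoters ranged from -1.41 (Col9a1) to 0.61, with 1 past the threshold (6.67%, against 0.851% of all promoter regions), and the sum was 554 to 630 CPM at E14.5 and 565 to 608 CPM at P0. At an unadjusted p under 0.05 the class had 8 regions higher (22.9%) and 1 lower (2.86%), against 22.7% and 7.58% at the basement membrane genes and 9.85% and 8.85% over all regions. Of the 20 regions outside promoters 2 passed (10.0%, against 6.59% of all regions outside promoters). At an unadjusted p under 0.05, 6 of the 20 were higher (30.0%, against 13.3%) and 0 lower (against 10.2%). They summed to 264 to 312 and 286 to 301 CPM, so that the stages overlapped in both sums.

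Of the 11 regions at the transmembrane collagens edgeR called 0, with 2 at an unadjusted p under 0.05 (18.2%, near the 18.7% of all regions). Of these, 1 was higher at Col25a1 (0.86, adjusted p = 0.114) and 1 lower at Col23a1 (-0.75, adjusted p = 0.141). Each is 9.09% of the list, against 9.85% higher and 8.85% lower over all regions. DESeq2 and limma-voom called 0 as well. Col25a1 is known as a neuronal collagen, and 6 of its 7 regions were fitted higher at P0, the exception being the region over its start at -0.02.

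Counts were also summed per gene over its regions, with their own scaling over 27643 genes for the log2 fold changes. The CPM given for the sums keep the scaling of the regions, so a log2 fold change can differ from the ratio of the CPM. It lay somewhat higher on the gene-sum scaling at genes with 1 region: 0.44 as a region and 0.51 as a sum at Col4a1, and -0.37 and -0.30 at Hspg2. Near 0 the sign can turn, as at Col5a1 (-0.05 and 0.02). By edgeR 0 of the 34 members passed, against 0.286% of all genes. At an unadjusted p under 0.05 there were 7 of the 34, against 12.9% of all genes. Of these 6 were higher and 1 lower, and the directions were not counted over all genes. DESeq2 called 2, Col4a2 and Col15a1, both higher, against 1.9% of all genes by that tool, and limma-voom called 0. The sums did not overlap between stages at 9 genes, against 18.4% of all genes. The largest positive value was that of Lamb1, with 15.2, 20.7 and 11.9 CPM at E14.5 and 30.1, 18.8 and 24.9 CPM at P0, with overlap (0.68, SE 0.24, adjusted p = 0.243). Col15a1 had 37.5, 36.3 and 41.0 CPM and 53.1, 63.1 and 51.5 CPM, without overlap (0.62, SE 0.16, adjusted p = 0.116), and was called without P0 replicate 3. Col4a2 had 66.8, 65.2 and 75.2 CPM and 95.8, 85.8 and 99.5 CPM, also without overlap (0.51, SE 0.13, adjusted p = 0.119). All 4 collagen IV genes and the laminin alpha genes Lama1 to Lama4 were fitted higher, and Lama5, Lamb2 and Lamc1 lower, none past the threshold. The only region at Lamb2 was the promoter of another gene, near Usp19. A promoter-listed region not listed for Lama5, near Adrm1 and Osbpl2, made up most of the Lama5 sum. Its means were 47.6 CPM at E14.5 and 39.5 CPM at P0 (-0.26), against 72.3 and 60.9 CPM for the sum. The region over the Lama5 start lay at -0.19, and the Lama5 sum at -0.18. The lowest was Agrn, with 72.95, 68.7 and 97.0 CPM and 60.1, 46.9 and 64.8 CPM, without overlap (-0.40, SE 0.15, adjusted p = 0.295). Lamc1 (-0.35) and Hspg2 (-0.30) followed, with adjusted p = 0.437 and 0.477. At Nid2, whose regions moved in both directions, the sum was 85.3, 87.1 and 92.0 CPM at E14.5 and 81.1, 78.8 and 91.2 CPM at P0, with overlap. On the gene-sum scaling its log2 fold change was -0.0044.

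**Figure D5:**
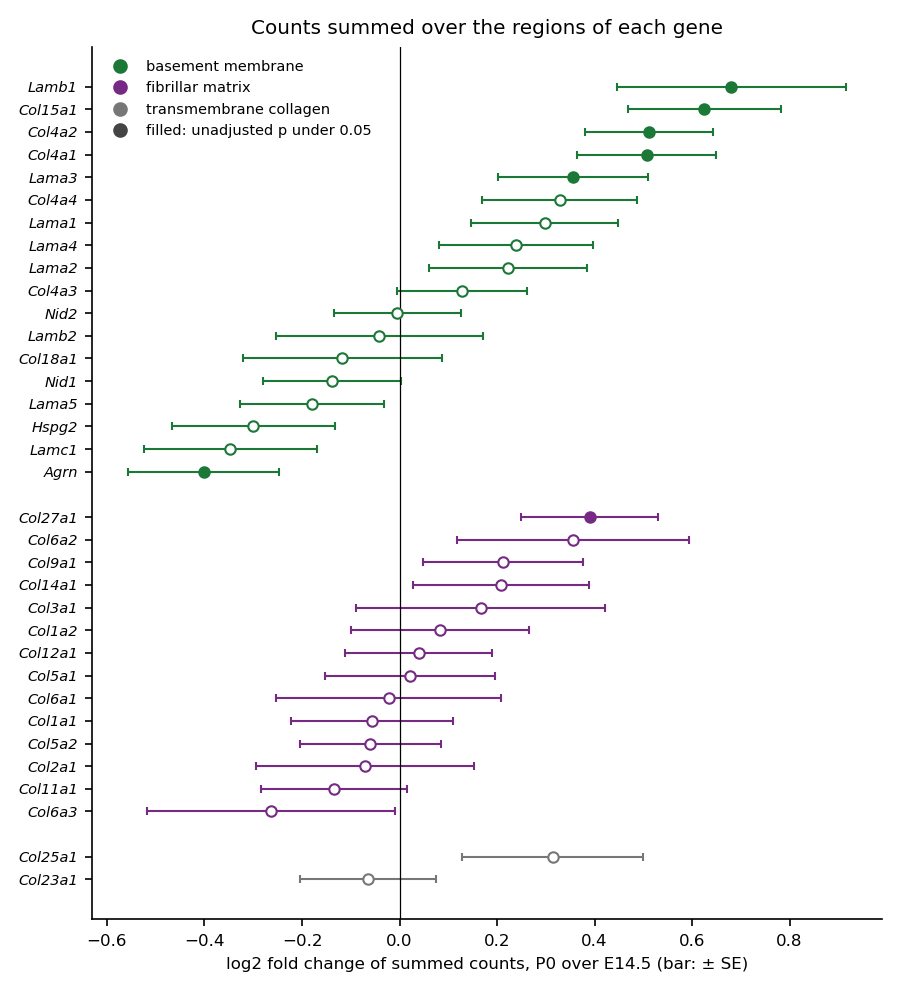
Log2 fold change ± SE of the counts summed over the regions of each gene, P0 over E14.5 (x axis, edgeR), for each of the 34 genes (y axis), ordered within a class. Filled points have an unadjusted p under 0.05, and no gene passes the adjusted threshold; Lamb1, Col15a1 and Col4a2 lie highest and Agrn lowest.

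The deposited table names motif matches per region, with no rule given. A forkhead factor was named at 27.3% of basement membrane regions, 11.4% of fibrillar matrix regions and 21.0% of all regions, and a Sox factor at 22.7%, 11.4% and 13.2%. Maz was named at 40.0% of fibrillar matrix, 21.2% of basement membrane and 21.3% of all regions, and a Sall factor at 37.1%, 13.6% and 16.8%. The differences between classes were not tested. In the authors' deposited table, 6 member regions were classed as opening and 1 as closing, and 2, those at Col15a1, had an adjusted p under 0.05 (0.0387 and 0.0461). The region at Nid2 was classed there as stable, with an adjusted p of 0.103.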

How the data were processed

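ATAC-seq counts were analysed for 3 libraries at E14.5 and 3 at P0. The authors deposited a table of regions with, per the file headers, whole-number counts per library, beside their own log2 fold change, p-value and adjusted p-value, used here only where named. The submitters' processing notes name mm10. The aligner, peak caller, counting rule, shift for the Tn5 site and removal of duplicates are not given in the sources used here, and each could change a count.

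Of 45489 lines, 1966 repeated a region, which left 43523. Genes were placed by RefSeq on GRCm38.p6. Promoter, exon and gene labels are the table's. All regions were fitted with edgeR 4.0.16 (R 4.3.3; TMM, filterByExpr, which removed 0 regions, quasi-likelihood F test, stage alone in the model), and adjusted by Benjamini-Hochberg over the table. Gene sums were fitted likewise, with their own TMM scaling, while their CPM use that of the regions. CPM are TMM-scaled, and errors are SD over 3 libraries. DESeq2 1.42.0 and limma-voom (limma 3.58.1), other scalings, filters, windows and thresholds, a replicate block, and each library left out were the alternatives. On simulated counts at 43523 regions with 200 changed, 70 were called and 4 unchanged ones. The changed regions had median fitted log2 fold changes of 0.99 (up) and -1.04 (down). With gene sums, 140 of 200 were called and 13 unchanged ones, with medians of 0.92 and -1.01. The simulation changed fewer regions than the 2059 called in the data. The members and lists were chosen with earlier results of these data known.

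Regions described in full were those past the threshold, the 4 next by p in each class, the starts of their genes and of head-to-head pairs, and the one with the highest mean CPM of each class and, for gene sums, the 3 highest and 3 lowest genes. Other regions given with values were chosen after their values were seen. Sequences came from the RefSeq promoter table, which held 23 of 34 members. The p-values measure the spread between litters.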

Additional observations from a re-analysis of the deposited data

How the results depend on the processing

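For the 6 changed regions, the 4 next by p in each class and 6 gene sums, 274 alternative values were computed, and other regions named in the report were not compared in this way. These included 244 on the same side of the threshold, 20 that lost it, 10 that passed it and 0 of opposite sign. The filter removed 0 regions, so the alternative without a filter repeats the main fit, and its values are among the 244. The count of 6 changed regions was 3 within gene bodies only and 1 at a threshold of 0.01. The basement membrane count of 3 became 5 with DESeq2, 1 without the multiplexins, 0 at a threshold of 0.01 and 6 at 0.1. The fibrillar matrix count of 3 became 1 within gene bodies, 1 at 0.01 and 1 for fibril-forming collagens only. Without single libraries these counts ranged from 0 to 10, 0 to 5 and 0 to 4, at 0 without E14.5 replicate 3 or P0 replicate 1. The basement membrane median of 0.07 was 0.13 with total counts, 0.12 in gene bodies, -0.0196 with 25 kb, 0.13 with repeated lines kept and 0.12 without regions near another protein-coding gene (added after seeing the data), and 0.0346 (without P0 replicate 3) to 0.1036 (without E14.5 replicate 1) without single libraries. The fibrillar median of 0.05 was 0.1017 with total counts, 0.0978 in gene bodies, 0.0894 with overlapping regions counted once (added after seeing the data) and -0.0436 with 25 kb, and ranged from -0.0389 (without P0 replicate 3) to 0.0887 (without E14.5 replicate 3) without single libraries. Gene sums gave 2 calls with DESeq2 and, without single libraries, 0 to 1, Col15a1 without P0 replicate 3. Total counts moved the median of all regions from 0.01 to 0.07. With the replicate number as a block 5 member regions passed (3 basement membrane, 2 fibrillar) and 4.21% of all regions. To look for pairing, the deviations of log CPM from the mean of the stage were correlated between E14.5 and P0 libraries. They correlated at 0.0666, -0.14 and 0.0767 for same-numbered libraries and at -0.241 to 0.192 for the others, so that the numbers show no pairing. At 0.211, the biological coefficient of variation limits the smallest difference that 3 libraries a stage can show.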

Other observations

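Other lists of matrix genes were counted against the 4.73% of all regions that edgeR called, with no test of a list. Of the 70 regions at other collagen and laminin chains, 1 rose and 1 fell by edgeR (2.86%), while DESeq2, which called 6.38% of all regions, called 7 (10.0%). The rise was at Col4a6, a collagen IV chain of the X chromosome, from 3.56, 2.89 and 1.05 CPM at E14.5 to 10.9, 8.63 and 6.63 CPM at P0 (log2 fold change 1.79, SE 0.40, adjusted p = 0.0187). The fall was at Col24a1, a fibril-forming chain, from 11.2, 11.6 and 12.8 CPM to 5.31, 5.75 and 7.42 CPM (-0.94, SE 0.25, adjusted p = 0.0470). In both the stages did not overlap.

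Of the 56 regions at collagen processing genes 1 passed (1.79%), a fall at Tll1, a tolloid-like protease (-0.85, adjusted p = 0.0408). Of the 35 at matrix turnover genes 2 rose (5.71%), both at Mmp16, a membrane-bound metalloproteinase (1.34 and 0.88, adjusted p = 0.0227 and 0.0456). DESeq2 called 1 and 2 regions of these lists and limma-voom 0 and 1, so that the fall at Tll1 was lost with limma-voom. At matrix receptors edgeR called 0 of 63, with 8 at an unadjusted p under 0.05 (12.7%, against 18.7% of all regions). There DESeq2 called 2 (3.17%, against 6.38%) and limma-voom 0. Among 95 regions at other matrix proteins 3 passed (3.16%; 5 by DESeq2, 5.26%), of which 1 rose at Tnc (tenascin-C), from 2.49, 2.89 and 2.57 CPM to 6.46, 9.38 and 9.24 CPM (1.65, adjusted p = 0.00910). At Fras1, a basement membrane protein needed for kidney formation, an exonic region rose (0.98, adjusted p = 0.0373) and a region outside exons fell (-1.38, adjusted p = 0.0408).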
